A study of Mus musculus with 35 samples.

Results

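Cubn, Amn, Lrp2, Dab2 and Lrpap1 encode the cubilin-megalin endocytic receptor and the proteins that carry it to the cell surface and into the cell. They were selected by gene name. All 5 were present among the 44853 genes measured during GATA6 induction, and all 5 were among the 6275 genes measured after Oct4 knock-down, a table that the authors had limited to genes they classed as responsive to GATA6. Cubilin (Cubn) is a very large receptor that lies on the outer face of the membrane and binds, among others, vitamin B12 bound to intrinsic factor, apolipoprotein A-I and albumin. It has no membrane anchor of its own and reaches the apical surface only together with amnionless (Amn), a small transmembrane protein. Megalin (Lrp2), a giant member of the LDL receptor family, shares many of these ligands and is taken up with cubilin. Dab2 is the adaptor that links the receptor tails to clathrin, and Lrpap1, also called RAP, is the chaperone of the endoplasmic reticulum that keeps LDL receptor family members free of ligand until they leave it. In the early mouse embryo this uptake machinery is best known from the visceral endoderm, a descendant of the primitive endoderm (PrE) that absorbs maternal nutrients, and in the adult from the proximal tubule of the kidney.

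The study used KH2 embryonic stem (ES) cells of C57BL/6 x 129/Sv background, derived as selected clones, in which doxycycline (Dox) at 1 µg/mL switches on an HA-tagged GATA6 transgene. Libraries came from untreated cells (0 h) and from cells kept in Dox for 16, 24, 48, 72, 96 or 168 h, with 3 libraries per time. XEN cells, wild-type extraembryonic endoderm stem cells of the X10 line and CD1 background, gave 2 libraries and carried no transgene and received no Dox. In the knock-down series, cells of a single clone of the inducible line were nucleofected with control siRNAs (siCTL) or with siRNAs against Oct4 (siOct4, gene symbol Pou5f1), plated at once in Dox and collected at 48 h, with 6 libraries per group. All cells grew in serum on inactivated mouse embryonic fibroblasts, the ES cells with LIF and the XEN cells without it, and the fibroblasts were removed by adsorption before lysis. Expression was deposited as TPM, transcript abundances divided by transcript length and scaled to a common total in every library, so that levels of different genes could be compared. TPM keeps no read depth, so the depth behind each value is unknown.

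The labels of the groups were checked against marker genes. Gata6 was at most 0.375 TPM in the untreated cells. It was 129 to 138 TPM after 16 h and 317 to 369.6 TPM after 168 h, and the XEN libraries held 352 and 341 TPM. The summed level of 6 ES cell markers went from 3229.8 to 3379.6 TPM at 0 h down to 76.6 to 157 TPM at 168 h and to 3.51 and 4.15 TPM in XEN cells. That of 7 PrE markers, which include the induced Gata6, went from 2.14 to 3.28 TPM up to 1487 to 1643 TPM and to 1355 and 1363 TPM. Of the 8 visceral endoderm markers other than Cubn and Amn, 2 were called higher at 48 h, 3 at 72 h and 7 at 168 h. Over all genes tested these shares were 9.14%, 14.7% and 22.6%. A gene was tested if its mean reached 1 TPM in any group. Apoa4 and Apob did so only at 168 h, with means of 2.55 and 3.29 TPM, so the count at 168 h is a description. The lowest libraries of Afp, Apoa1, Apoa4 and Apob at 168 h held 0.182, 0.101, 0.172 and 0.0608 TPM. At 48 and 72 h Hnf4a had means of 16.8 and 20.9 TPM and Ihh of 8.95 and 29.4 TPM, and Apom had 4.77 TPM at 72 h. In contrast, Afp, Ttr, Apoa1, Apoa4 and Apob had group means of at most 1.48 TPM up to 96 h. All 8 summed to 41.2 to 71.3 TPM at 72 h and to 22.8 to 110.7 TPM at 168 h. The 10 parietal endoderm markers summed to 30509 to 31823 TPM at 168 h. The 10 fibroblast markers summed to 38.9 to 117 TPM at 0 h and to 142 to 297 TPM at 168 h, and their part in the results was not tested. In such bulk samples, fewer cells that express a gene and less RNA of it per cell cannot be told apart.

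The sequences in front of the start sites are shown because all 5 genes rose together after a GATA factor was induced, and because Cubn and Amn fell when Oct4 was knocked down. Each is the stretch from 250 bases before to 50 bases after a RefSeq start on GRCm38.p6, the same assembly as mm10, printed 5′ to 3′ on the strand of the gene. Capitals mark GATAA, the core of the GATA motif, or TTATC, the same motif on the other strand.
Cubn, chr2:13491827-13492126, minus strand: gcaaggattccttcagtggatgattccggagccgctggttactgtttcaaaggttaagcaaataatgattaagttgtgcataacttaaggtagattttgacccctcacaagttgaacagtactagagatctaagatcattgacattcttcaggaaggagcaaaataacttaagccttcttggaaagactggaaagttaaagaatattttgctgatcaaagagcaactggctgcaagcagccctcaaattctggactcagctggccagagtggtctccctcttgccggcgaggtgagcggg
Amn, chr12:111270846-111271145, plus strand: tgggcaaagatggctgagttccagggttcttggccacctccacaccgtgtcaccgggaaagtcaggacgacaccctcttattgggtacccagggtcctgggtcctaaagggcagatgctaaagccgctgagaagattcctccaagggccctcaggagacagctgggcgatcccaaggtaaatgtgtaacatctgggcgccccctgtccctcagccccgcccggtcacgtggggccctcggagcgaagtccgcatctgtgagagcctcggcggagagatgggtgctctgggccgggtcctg
Dab2, chr15:6299539-6299838, plus strand: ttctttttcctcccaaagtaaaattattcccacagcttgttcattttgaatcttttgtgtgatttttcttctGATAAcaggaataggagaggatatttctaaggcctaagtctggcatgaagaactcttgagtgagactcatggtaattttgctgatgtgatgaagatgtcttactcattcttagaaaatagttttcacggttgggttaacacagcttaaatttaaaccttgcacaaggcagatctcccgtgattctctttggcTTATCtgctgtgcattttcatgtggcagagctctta
Lrpap1, chr5:35105650-35105949, minus strand: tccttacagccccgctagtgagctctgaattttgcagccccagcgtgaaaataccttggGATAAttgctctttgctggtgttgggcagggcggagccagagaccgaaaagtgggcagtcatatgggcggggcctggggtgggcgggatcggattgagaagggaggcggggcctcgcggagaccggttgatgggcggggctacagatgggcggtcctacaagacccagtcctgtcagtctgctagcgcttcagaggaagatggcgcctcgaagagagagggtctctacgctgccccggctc
GATAA was found on either strand in 25.4% of the 32851 promoters of the RefSeq table. Among the 5 genes it occurred in the windows of Lrpap1, with its first base at position -191, and of the upstream start of Dab2, at positions -178 and, as TTATC, 14, counted from the start base as 0. It did not occur in the windows of Cubn, Amn and Lrp2 or of the second, downstream start of Dab2. The octamer ATGCAAAT, a motif of OCT4, was present in 1.74% of all promoters, and the SOX core ATTGTT in 10.7%, each searched on both strands, and neither was present in a window of the 5 genes. The Cubn window and the upstream Dab2 window held 5 and 2 CpG dinucleotides and were 44.3% and 37.7% G or C, against medians of 7 and 52.7% over all promoters. The windows of Amn, Lrp2 and Lrpap1 held 15, 20 and 18 and were 62.3%, 65.0% and 61.3% G or C. The downstream Dab2 window held 19 and was 59.3% G or C.

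All 5 genes were higher at every time in Dox than in the untreated cells (limma, adjusted p under 0.05 and a log2 change above 1 on the scale of log2(TPM + 1)). Among all 15057 genes tested, 1.97% were called higher in this way at 16 h and 3.24% at 24 h. This background grew to 9.14% at 48 h, 14.7% at 72 h, 15.4% at 96 h, and 22.6% of the genes at 168 h. The median log2 change of the 5 genes was 2.19 after 16 h, 5.62 after 48 h and 6.46 after 96 h, and it was lower again, at 5.98, after 168 h. Over all genes tested the medians at these times were 0.02, 0.00, 0.01 and 0.09. In each of these comparisons the libraries of the 2 groups did not overlap for any of the 5 genes. The share of all genes without overlap was not counted. At 168 h, 41.7% of all genes tested were higher at an unadjusted p under 0.05 (limma). At 16 h the calls of Cubn and Lrp2 depended on the libraries kept: with replicate number 1 left out in all groups, Cubn had a log2 change of 1.19 (limma adjusted p = 0.148) and Lrp2 of 1.40 (limma adjusted p = 0.165), and with number 2 left out the adjusted p-values were 0.172 and 0.113. Without number 3, Cubn fell just short of the fold limit at 0.96.

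**Figure D1:**
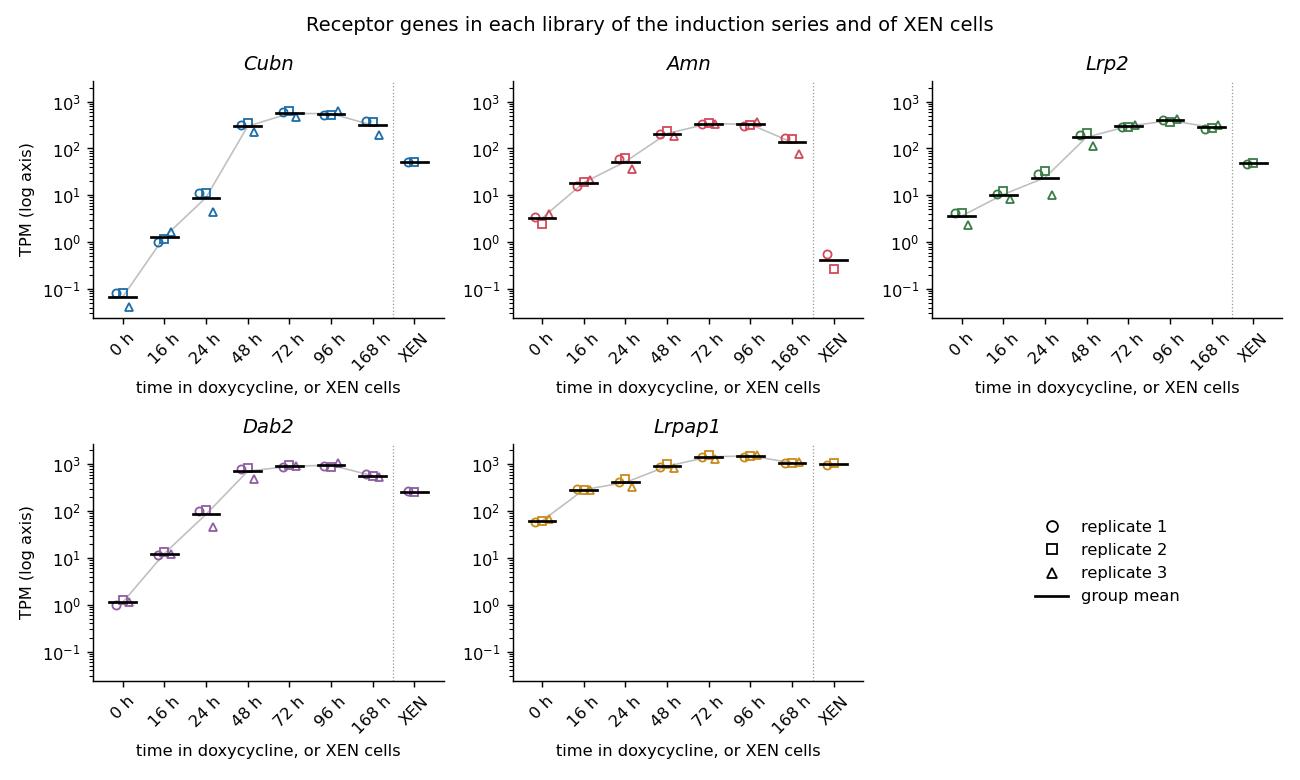
Expression of the 5 genes in every library of the induction series and of XEN cells, as TPM on a log axis shared by the panels. Symbols are libraries by replicate number, black bars are group means, and the grey line joins the means of the Dox times. Cubn climbs from under 0.1 TPM to between 463 and 617 TPM at 72 h, and Amn is the gene whose XEN libraries, at 0.556 and 0.263 TPM, lie below its untreated ES cells.

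Cubn, encoding cubilin itself, lies on chromosome 2 (mm10, 13276338 to 13491813, minus strand) and has 14935 bases of exon in the GENCODE annotation. Its 3 libraries held 0.0812, 0.0812 and 0.0406 TPM at 0 h, 1.01, 1.19 and 1.67 TPM at 16 h, and 11.0, 11.4 and 4.48 TPM at 24 h. They held 320.2, 354 and 221 TPM at 48 h, 597, 617 and 463 TPM at 72 h, and 527, 508 and 633 TPM at 96 h. Cubn was thus almost silent in ES cells and stayed low through the first day, and no library from 48 h on overlapped with any from 24 h or earlier. The mean at 48 h was 33.3 times that at 24 h (log2 change 4.97 ± 0.27, SE; limma adjusted p = 9.76e-10). Among all 15057 genes, its log2 change from 0 h had rank 3 from the highest at 48 h and rank 2 at 72 and 96 h. At 168 h the libraries held 387, 359 and 194 TPM, and the mean of 313 ± 105 TPM (SD, n = 3) lay next to that at 48 h, 298 ± 69.1 TPM (SD, n = 3), from which it did not differ beyond the spread (log2 difference 0.04 ± 0.27, SE; limma adjusted p = 0.926).

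Lrp2, encoding megalin, also lies on chromosome 2 (mm10, 69424340 to 69586065, minus strand), with 16701 bases of exon. Its libraries held 4.24, 4.27 and 2.31 TPM at 0 h, 10.8, 12.1 and 8.27 TPM at 16 h, and 28.1, 33.1 and 10.1 TPM at 24 h. They held 194, 217 and 111 TPM at 48 h, 288, 291 and 317 TPM at 72 h, and 400.2, 370.3 and 417 TPM at 96 h. Lrp2 thus started above Cubn and reached its highest mean later, at 96 h, although that mean of 396 ± 23.7 TPM and the 299 ± 15.7 TPM at 72 h (SD, n = 3 each) did not differ beyond the spread (log2 difference 0.41 ± 0.31, SE; limma adjusted p = 0.383). At 168 h the libraries held 266, 268 and 316 TPM, all below the 3 libraries at 96 h, with a log2 difference of -0.48 ± 0.31 (SE; limma adjusted p = 0.219).

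Amn, encoding the partner that anchors cubilin, lies on chromosome 12 (mm10, 111271095 to 111276426, plus strand) and has 1843 bases of exon. Its libraries held 3.47, 2.41 and 3.94 TPM at 0 h, 16.0, 18.8 and 21.3 TPM at 16 h, and 58.3, 62.7 and 36.3 TPM at 24 h. They held 208, 231 and 184 TPM at 48 h, 339, 348 and 336 TPM at 72 h, and 299.6, 315 and 363 TPM at 96 h. Amn was therefore well above Cubn during the first day and below it from 48 h on. At 168 h its libraries held 166, 161 and 78.0 TPM, none of which reached the lowest library at 96 h. This fall of 1.34 on the log2 scale (limma adjusted p = 0.000153) was the only call among the 5 genes in that step, in which 2.44% of all genes were called lower. Replicate 3 was the lowest of the 3, and without it the log2 difference was -0.98 (limma adjusted p = 0.000588), just inside the fold limit and no longer called. The markers of this library stood apart too: its fibroblast markers summed to 297 TPM against 144 and 142 TPM in the other two, its ES cell markers to 157 against 76.6 and 78.6 TPM, and its visceral endoderm markers to 22.8 against 110.7 and 97.6 TPM. Their part in the Amn level was not tested.

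Dab2, encoding the clathrin adaptor, lies on chromosome 15 (mm10, 6299788 to 6440712, plus strand). Its libraries held 0.985, 1.24 and 1.17 TPM at 0 h, 11.5, 13.6 and 12.3 TPM at 16 h, and 101, 108 and 46.7 TPM at 24 h. They held 794, 855 and 489 TPM at 48 h, 883, 947 and 901 TPM at 72 h, and 905, 880.2 and 1089 TPM at 96 h. Its log2 changes from 0 h were 2.66, 5.25 and 8.35 at 16, 24 and 48 h, the largest of the 5 genes on the log2(TPM + 1) scale, which understates the change of low genes. As ratios of mean TPM to 0 h, those of Cubn were larger, at 19.1, 132 and 4407 against 11.0, 75.6 and 631 for Dab2. On the log2(TPM + 1) scale Dab2 had rank 2 from the highest among all genes tested at 48 h. Its means at 48, 72 and 96 h, 713 ± 196, 910.3 ± 33.0 and 958 ± 114 TPM (SD, n = 3 each), did not differ from their neighbours beyond the spread (limma adjusted p = 0.212 for 72 against 48 h and 0.871 for 96 against 72 h). At 168 h the libraries held 632, 564 and 525 TPM, below those at 96 h, a log2 difference of -0.74 ± 0.23 (SE; limma adjusted p = 0.0141) that was inside the fold limit.

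Lrpap1, encoding the chaperone, lies on chromosome 5 (mm10, 35091501 to 35105766, minus strand). It was the only one of the 5 genes with a sizeable level in ES cells. Its libraries held 58.1, 61.7 and 66.9 TPM at 0 h, 291, 282 and 289 TPM at 16 h, and 424, 486 and 323 TPM at 24 h. They held 889, 1011 and 833 TPM at 48 h, 1456, 1553 and 1329 TPM at 72 h, and 1458, 1476 and 1622 TPM at 96 h. It was the most abundant of the 5 at every time and had the smallest log2 change at 48 h and later, of 3.85 at 48 h and 4.59 at 96 h. At 168 h the libraries held 1045, 1073 and 1100.4 TPM, all below those at 96 h, and the log2 difference of -0.50 ± 0.11 (SE; limma adjusted p = 0.00102) was inside the fold limit.

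The step in which each gene changed was examined between successive times. From 16 to 24 h, Cubn, Amn and Dab2 were called higher, with log2 changes of 2.04, 1.41 and 2.59, where 0.232% of all genes were called higher. Lrp2 had a change of 0.98 (limma adjusted p = 0.106), with overlapping libraries, and Lrpap1 of 0.50 (limma adjusted p = 0.0172). Replicate 3 at 24 h was the lowest library for all 5 genes, and without it Lrp2 was called as well, with a change of 1.48 (limma adjusted p = 0.00103). With replicate number 1 left out in all groups, 0 of the 5 genes were called in this step (limma), with log2 changes of 1.77 for Cubn, 1.22 for Amn and 2.37 for Dab2, and of 15130 genes tested 1 was called higher. With number 2 left out, Dab2 alone of the 5 was called, and 3 of 15112 genes were called higher. In the full set all 5 genes were higher at an unadjusted p under 0.05, where 7.92% of all genes were. From 24 to 48 h all 5 genes were called higher, where 3.12% of all genes were, with log2 changes from 1.16 for Lrpap1 to 4.97 for Cubn. From 48 to 72 h, 0 of the 5 were called higher by limma, where 1.95% of all genes were. The differences were 0.92 for Cubn, 0.83 for Lrp2, 0.72 for Amn, 0.67 for Lrpap1 and 0.39 for Dab2 on the log2 scale. Of the 5 genes, 4 had an unadjusted and an adjusted p under 0.05 but stayed inside the fold limit. Of all 15057 genes, 21.9% were higher at an unadjusted p under 0.05 in this step, and 2455 at an adjusted p under 0.05. From 72 to 96 h, 0 of the 5 were called in either direction by limma, where 1.71% of all genes were called. At an unadjusted p under 0.05, 0 of the 5 differed, where 15.9% of all genes were higher and 16.3% lower. The differences of the 5 genes lay between -0.07 and 0.41 on the log2 scale.

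**Figure D2:**
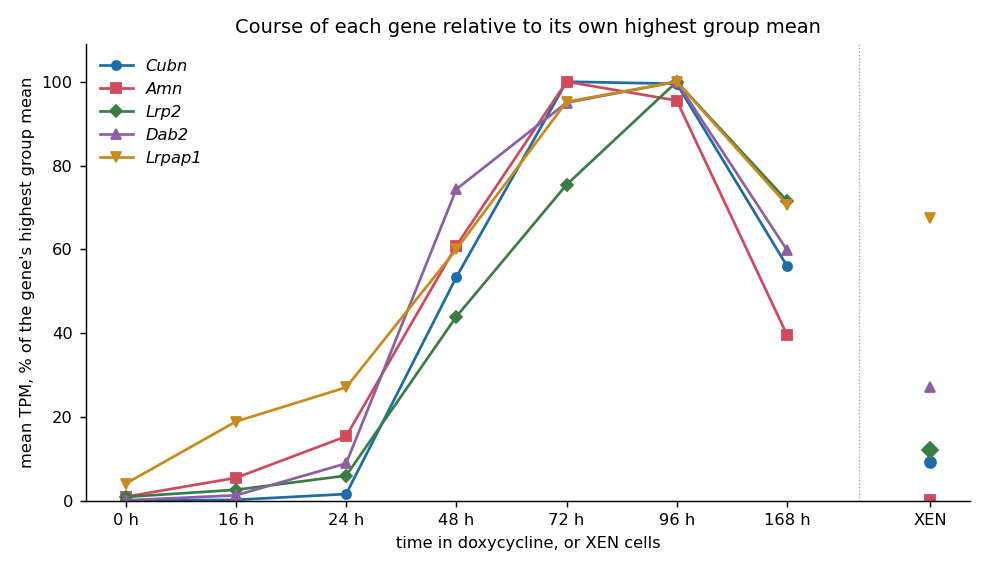
Mean TPM of each gene as a percentage of its own highest group mean, at each time in Dox (spaced evenly, not to scale) and in XEN cells, right of the dotted line. At 24 h Cubn stands at 1.60% and Lrpap1 at 27.1% of the highest mean. At 168 h Amn has dropped to 39.6% and Lrp2 is at 71.6%.

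As shares of each gene's own highest group mean, the means stood in an order that changed with time. At 0 h the shares were 4.10% for Lrpap1, 0.959% for Amn, 0.912% for Lrp2, 0.118% for Dab2 and 0.0121% for Cubn. At 16 h the mean of Lrpap1 was already 18.9% of its highest group mean, that of Amn 5.48%, that of Lrp2 2.62%, that of Dab2 1.30% and that of Cubn 0.231%. At 48 h the shares were 74.4% for Dab2, 60.9% for Amn, 60.0% for Lrpap1, 53.4% for Cubn and 43.9% for Lrp2. At 168 h they were 71.6% for Lrp2, 70.6% for Lrpap1, 59.9% for Dab2, 56.1% for Cubn and 39.6% for Amn. These shares are descriptions of the group means and were not tested against each other.

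Cubilin and amnionless work as a complex, and the ratio of their transcripts was therefore followed. The TPM of Cubn was 0.0225 ± 0.0117 times that of Amn in untreated cells, 0.0684 ± 0.00896 times after 16 h and 0.165 ± 0.0360 times after 24 h (SD, n = 3 each). From 48 h, when it was 1.42 ± 0.193 times, it went over 1.64 ± 0.225 and 1.71 ± 0.0793 times at 72 and 96 h to 2.35 ± 0.128 times at 168 h. Every library up to 24 h held less Cubn than Amn, and every library from 48 h on held more. In XEN cells the ratio was 93.6 and 194, since Cubn was present and Amn was at 0.556 and 0.263 TPM. The ratio of Dab2 to Lrp2 also went up over the first day, from 0.342 ± 0.143 in untreated cells to 1.23 ± 0.231 after 16 h and 3.84 ± 0.706 after 24 h (SD, n = 3 each). It then lay between 1.66 and 4.39 in the libraries from 48 h on and was 5.55 and 5.28 in XEN cells.

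**Figure D3:**
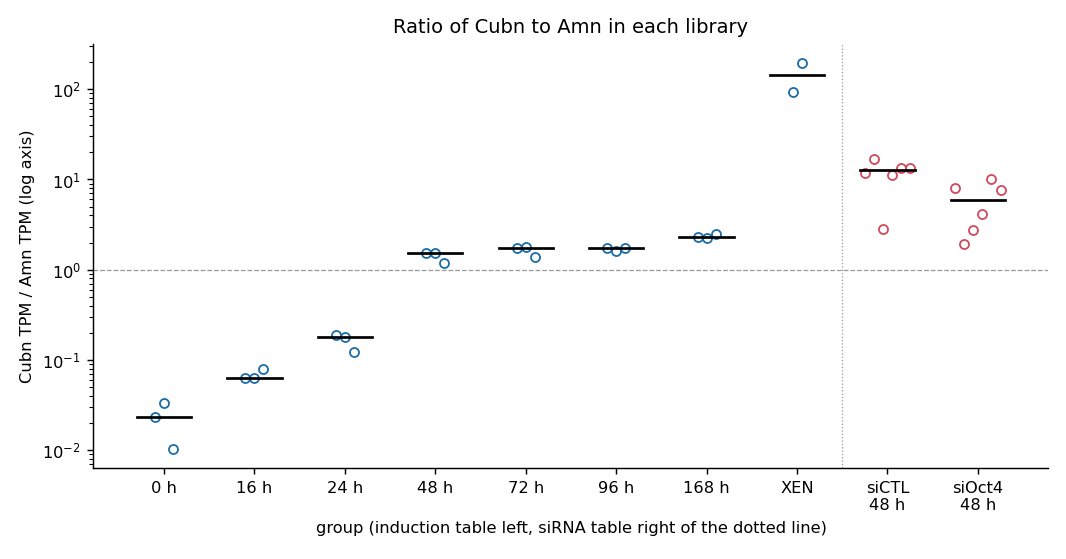
Ratio of Cubn to Amn TPM in each library, on a log axis, for the induction series and XEN cells (blue) and the siRNA series (red); bars are group medians and the dashed line marks equal levels. The ratio passes 1 between 24 and 48 h, reaches 93.6 and 194 in XEN cells, and in siCTL libraries has a median of 12.6 with replicate 3 apart at 2.81.

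XEN cells served as the reference for PrE-derived cells, but they differ from the induced cells in line, strain, LIF and transgene, and these cannot be told apart from the cell type. Against untreated ES cells, Cubn, Lrp2, Dab2 and Lrpap1 were higher in XEN cells, where 18.9% of all genes were, and Amn was lower by 1.59 on the log2 scale (limma adjusted p = 2.18e-05). Against cells after 168 h in Dox, 4 of the 5 genes were lower in XEN cells, where 9.17% of all genes were. The Cubn libraries held 52.0 and 51.0 TPM and the Lrp2 libraries 47.5 and 48.4 TPM in XEN cells, 6.08 and 5.91 times less in the mean than at 168 h (log2 differences -2.52 ± 0.30 and -2.53 ± 0.34, SE; limma adjusted p = 1.69e-06 and 6.78e-06). Amn was 329.9-fold apart in the means, with a log2 difference of -6.52 ± 0.26 (SE; limma adjusted p = 3.23e-13) that had rank 6 from the lowest of all 15057 genes. Dab2, at 264 and 256 TPM, differed by -1.13 ± 0.26 (SE; limma adjusted p = 0.00116). Rescaling the libraries by the median of ratios moved Dab2 to -0.97, inside the fold limit, and leaving out replicate number 1 or 2 moved its adjusted p to 0.0704 or 0.0516. Lrpap1, at 992 and 1059.9 TPM, overlapped with the 168 h libraries and did not differ beyond the spread (log2 difference -0.06 ± 0.12, SE; limma adjusted p = 0.695), nor did Gata6 (0.01 ± 0.10, SE; limma adjusted p = 0.953). Some marker lists were lower in the same comparison. Called lower were 6 of 6 ES cell, 4 of 8 visceral endoderm, 4 of 10 fibroblast and 3 of 6 trophectoderm markers. Their median log2 differences were -1.74, -1.28, -0.86 and -1.14, against -0.14 over all genes. The visceral endoderm markers Apoa4 and Apob were tested only through their means at 168 h. Of 7 PrE markers 1 was called lower, with a median of -0.32. Of 10 parietal endoderm markers 4 were lower and 2 higher. The part of these markers in the differences of the 5 genes was not tested.

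The other genes of the uptake pathway were described through lists that leave out the 5 genes. At 168 h, where 22.6% of all genes were called higher and 16.5% lower than at 0 h, 4 of 11 tested genes of the LDL receptor family were higher and 2 lower, with a median log2 change of 0.44 against 0.09 over all genes. Vldlr, the very low density lipoprotein receptor, went from 1.44 ± 0.0252 to 30.9 ± 7.58 TPM (SD, n = 3 each), Lrp10 from 8.11 to 58.0 TPM in the mean, and the WNT co-receptor Lrp6 from 21.1 to 53.9 TPM. The sorting receptor Sorl1 went from 11.6 to 1.43 TPM and Lrp11 from 21.4 to 6.67 TPM. At 16 h, where 1.97% of all genes were called higher, 0 of these 11 genes were called by limma, with 2 higher at an unadjusted p under 0.05, and at 48 h, where 9.14% were, 1 was called, Lrp10. Both counts are near the share over all genes.

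Among endocytic adaptors and the clathrin coat, 8 of 20 tested genes were higher at 168 h and 0 lower, with a median log2 change of 0.85. Among the higher genes were Myo6, a minus-end directed myosin that moves endocytic vesicles (4.45 ± 1.55 to 78.7 ± 24.9 TPM, SD, n = 3 each) and the dynamin Dnm2 (28.9 to 107 TPM in the mean). Myo6 was already at 53.9 TPM at 48 h. Of the genes of apical recycling and endosome acidification, 8 of 14 tested were higher at 168 h and 2 lower, with a median of 1.09. The proton pump subunit Atp6v0a1 went from 11.3 to 266 TPM in the mean, the endosomal chloride transporter Clcn5 from 8.08 to 122 TPM, and the RAB11 effector Rab11fip5 from 2.29 to 22.3 TPM, while the scaffold Slc9a3r1 went from 72.4 to 29.7 TPM and Clcn3 from 25.2 to 10.9 TPM. At 48 h, where 9.14% of all genes were called higher, 7 of these 14 genes were, among them Slc9a3r1, at a mean of 147 TPM.

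Of the secreted proteins that the receptors are known to carry, 15 were measured and 11 tested, the others staying below a mean of 1 TPM in every group. A gene could thus be tested through its level at 168 h alone, so the counts at 168 h are descriptions. Of the 11 genes, 7 were higher at 168 h and 2 lower, where 22.6% and 16.5% of all genes were. At 48 h 2 were higher and 1 lower, where 9.14% of all genes were called higher. Tcn2, the vitamin B12 carrier transcobalamin, went from 6.99 to 226 TPM in the mean, clusterin (Clu) from 8.41 to 243 TPM, and transthyretin (Ttr), listed at 0 TPM in the 3 libraries at 0 h, to 32.9 ± 26.9 TPM (SD, n = 3). Transferrin (Trf) went from 13.7 to 0.619 TPM, and the vitamin D binding protein Gc from 1.57 to 0.217 TPM. At 16 h 0 of these 11 ligands were called by limma, near the 1.97% over all genes, and at an unadjusted p under 0.05 1 was higher and 2 were lower.

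The course of each gene was compared with that of the 9357 genes whose group means spanned at least 1 on the log2(TPM + 1) scale, by Pearson's r over the 23 libraries of the induction series and XEN cells. These libraries share their time groups, so r is given as a description. The genes nearest to Cubn were Pcbd1, a cofactor of HNF1 (r = 0.994), Ccdc93 (0.992), the FGF co-receptor Klb (0.987), Lrp2 (0.985) and Nedd9 (0.984). Those nearest to Lrp2 were Cubn, Pik3ap1 (0.984), Foxf2 (0.983), the small GTPase Rab1a (0.981) and the polarity protein Patj (0.981), so that the receptor genes appeared in each other's lists. Klb also led the list of Dab2 (0.989), followed by Nfxl1 (0.988), the endosomal SNARE Vamp8 (0.987), Tmem144 (0.983) and Bend5 (0.982). The genes nearest to Lrpap1 were Podxl, the sialomucin podocalyxin (0.991), Eva1a (0.989), Gcnt1 (0.985), Gdpd5 (0.984) and Itm2b (0.981).

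Amn had a list of its own: Rhbdf2 (r = 0.975), the acyltransferase Gpat3 (0.969), the desmosomal cadherin Dsc2 (0.968), the ETS factor Elf3 (0.966) and Nostrin (0.962). Its r with the other 4 genes was 0.754 for Cubn, 0.783 for Lrp2, 0.725 for Dab2 and 0.661 for Lrpap1, whereas the r among those 4 lay between 0.926 and 0.985. The 5 genes near Amn shared its low level in XEN cells, which is part of what r measures. Elf3 had a mean of 112 TPM at 168 h and 3.24 TPM in XEN cells, and Nostrin 67.8 and 0.460 TPM.

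The knock-down series addressed whether the response to GATA6 depends on OCT4. Pou5f1 itself, the target of the siRNAs, was 782 to 1194 TPM with a median of 895 TPM in the 6 siCTL libraries and 282 to 387 TPM with a median of 314 TPM in the 6 siOct4 libraries, lower in 6 of 6 same-numbered pairs and without overlap. The log2 difference was -1.52 ± 0.14 (SE; limma adjusted p = 5.21e-05). The median difference of all 6264 genes tested was -0.12 on the log2 scale, and it was 0.01 after the libraries were rescaled by the median of ratios. The difference of Pou5f1 was -1.36 after this rescaling, and those of the 5 genes are therefore each given with their rescaled counterpart. In the siRNA series a log2 difference beyond 0.5 was required for a call.

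Cubn and Amn were called lower in siOct4 cells, 2 of the 5 genes, where 1.72% of all genes tested were called lower. With the replicate number as a block, which pairs the libraries, Dab2 was called as well, making 3 of 5, where 6.15% of all genes were called lower. Cubn was 122 to 649.8 TPM in siCTL libraries, with a median of 337 TPM, and 18.2 to 126 TPM in siOct4 libraries, with a median of 56.3 TPM. The groups overlapped at their edge, siCTL replicate 3 lying below siOct4 replicate 5, but Cubn was lower in 6 of 6 pairs, by 3.66 to 14.7 times. The log2 difference of -2.55 ± 0.46 (SE; limma adjusted p = 0.00641; two-sided exact permutation p = 0.00433) was the lowest of all 6264 genes tested, and it was -2.40 after rescaling.

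Amn was 16.1 to 58.4 TPM in siCTL libraries, with a median of 32.1 TPM, and 6.09 to 15.1 TPM in siOct4 libraries, with a median of 11.3 TPM. The groups did not overlap, and Amn was lower in 6 of 6 pairs, by 1.68 to 4.19 times. Its log2 difference was -1.43 ± 0.30 (SE; limma adjusted p = 0.0197; two-sided exact permutation p = 0.00216, the smallest that 6 against 6 libraries allow), and -1.29 after rescaling. Without replicate number 5 or 6 the adjusted p was 0.0737 or 0.0842. Consecutive libraries of a group (1 and 2, 3 and 4, 5 and 6) deviated together from the group mean in 5 of 6 cases, siCTL 3 and 4 being the exception. When they were averaged, which left 3 values per group, the adjusted p was 0.0661 for Cubn and 0.275 for Amn, and with the averaged number as a block it was 0.000150 and 0.00844.

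**Figure D4:**
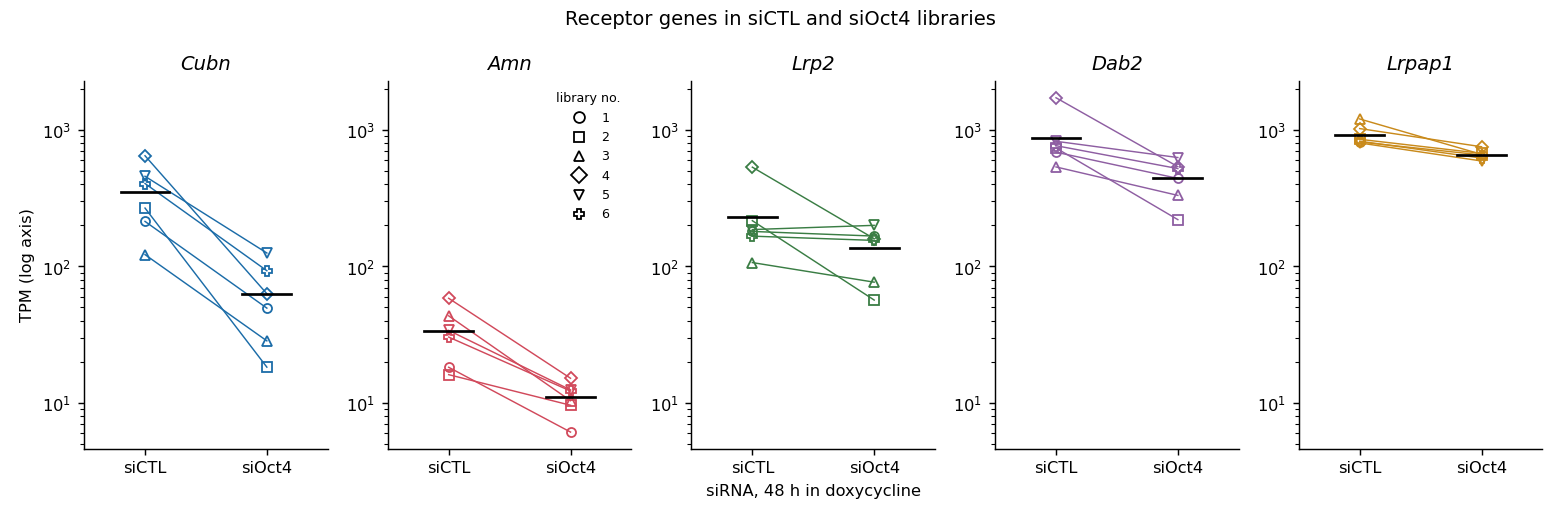
Expression of the 5 genes in the siRNA series at 48 h in Dox, as TPM on a log axis shared by the panels. Lines join siCTL and siOct4 libraries of the same number, and black bars are group means (n = 6 each). Cubn and Amn descend in all 6 pairs, Lrp2 in 5 of 6, and numbers 2 and 4 have the steepest lines for Cubn, Lrp2 and Dab2.

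Dab2 was 538 to 1732 TPM in siCTL libraries, with a median of 755 TPM, and 221 to 630.4 TPM in siOct4 libraries, with a median of 483 TPM. The groups overlapped, and Dab2 was lower in 6 of 6 pairs. The log2 difference was -0.95 ± 0.28 (SE; limma adjusted p = 0.0962, or 0.0114 in the blocked fit; two-sided exact permutation p = 0.00649), and -0.80 after rescaling, where it was called (limma adjusted p = 0.0489). Lrpap1 was 807 to 1210.2 TPM in siCTL libraries, with a median of 844 TPM, and 595 to 757 TPM in siOct4 libraries, with a median of 662 TPM. Its groups did not overlap, and the log2 difference was small, -0.47 ± 0.12 (SE; limma adjusted p = 0.0521, or 0.00890 in the blocked fit), inside the limit of 0.5, and -0.32 after rescaling.

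Lrp2 was 107 to 536 TPM in siCTL libraries, with a median of 184 TPM, and 56.7 to 200.4 TPM in siOct4 libraries, with a median of 158 TPM. The groups overlapped. Lrp2 was lower in 5 of 6 pairs, but 4 pairs differed by at most 1.39 times and pairs 2 and 4 by 3.83 and 3.35 times. The log2 difference of -0.71 ± 0.37 did not pass the test (SE; limma adjusted p = 0.429, or 0.162 in the blocked fit; two-sided exact permutation p = 0.139), and it was -0.56 after rescaling.

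**Figure D5:**
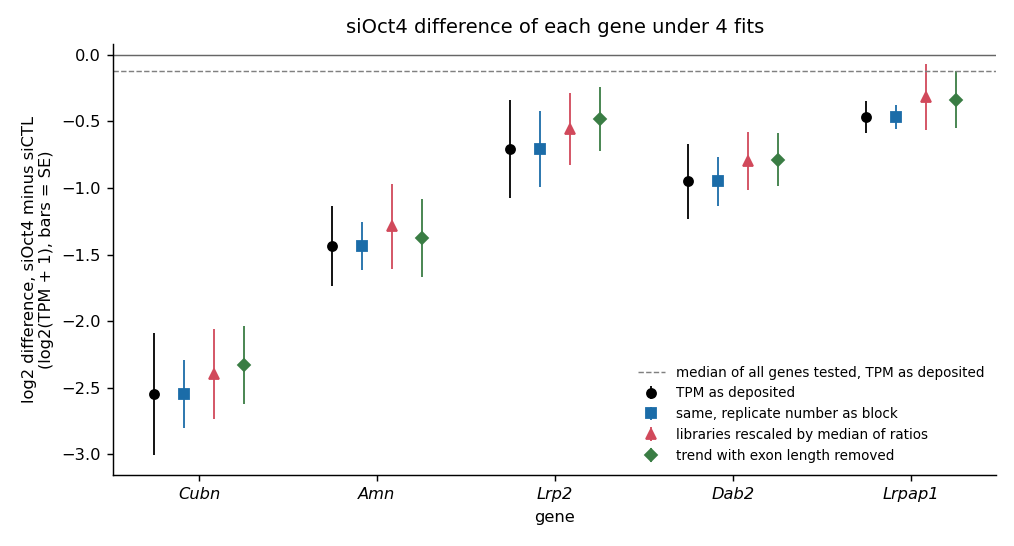
Log2 difference between siOct4 and siCTL libraries for each gene, with SE as bars, from TPM as deposited, from the same values with the replicate number as a block, after rescaling by the median of ratios, and after removing the trend with exon length. The dashed line is the median of all 6264 genes at -0.12. Cubn lies between -2.55 and -2.33 and Lrpap1 between -0.47 and -0.32 in all 4 fits.

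Whether the genes responded to a different extent was tested on their ratios within each library, for the 6 pairs among Cubn, Amn, Lrp2 and Dab2 (two-sided exact permutation test over 12 libraries, adjusted over the 6 pairs). Cubn changed in relation to Lrp2: the log2 ratio of Cubn to Lrp2 went from 0.60 ± 0.53 with siCTL to -1.24 ± 0.44 with siOct4 (SD, n = 6 each), without overlap, a difference of -1.84 (adjusted exact p = 0.00649). It also changed in relation to Dab2, from -1.41 ± 0.48 to -3.01 ± 0.51 (SD, n = 6 each), a difference of -1.60 (adjusted exact p = 0.00649). The ratio of Cubn to Amn differed by -1.11 (adjusted exact p = 0.130) and was lower in 6 of 6 pairs. Without number 3, whose siCTL library had a ratio far below the others, it differed by -1.32 (adjusted exact p = 0.0159). The ratios of Amn to Lrp2 and of Amn to Dab2 differed by -0.73 and -0.48 (adjusted exact p = 0.190 and 0.193), and that of Lrp2 to Dab2 by 0.24 (adjusted exact p = 0.175). With the trend of each library with exon length removed, all 6 differences passed the adjusted threshold, the highest adjusted exact p being 0.0368. When same-numbered libraries were paired and their signs flipped, an exact test that cannot go below 0.0312, all 3 ratios with Cubn reached that value, or 0.0625 after adjustment. The test over 12 libraries takes no account of consecutive libraries deviating together. With these averaged, the differences of Cubn to Lrp2 and to Dab2 were -1.86 and -1.62 (adjusted exact p = 0.3 each). There 3 against 3 values cannot go below 0.10 before adjustment.

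Other genes moved in the same libraries, and their part in these differences was not tested. Gata6, transgene and endogenous gene together, was 92.6 to 198 TPM in siCTL and 51.2 to 130.2 TPM in siOct4 libraries, a log2 difference of -0.50 ± 0.22 (SE; limma adjusted p = 0.326, or 0.0503 in the blocked fit). The rescaled difference of Gata6 was -0.35 (limma adjusted p = 0.503). At an unadjusted p under 0.05, 9.90% of all genes tested were lower and 3.94% higher. Of the 7 PrE markers, which include Gata6, 0 were called by limma and 5 were lower at an unadjusted p under 0.05. In the blocked fit 4 were called lower, where 6.15% of all genes were. The median difference of the 7 markers was -0.60. Their sum was 545 to 1271 TPM in siCTL and 321 to 669.8 TPM in siOct4 libraries. Of the 3 measured visceral endoderm markers other than Cubn and Amn, 0 were called by limma and 2 were lower at an unadjusted p under 0.05. Hnf4a and Apom were lower with the block, and 1 of the 3 was called lower after rescaling. Of 10 parietal endoderm markers Plat was higher and Srgn lower, and after rescaling 1 was called higher and 0 lower. Of 6 trophectoderm markers 0 were called by limma and 4 were higher at an unadjusted p under 0.05. With the block 3 were called higher (Krt7, Tfap2c and Hand1), where 152 of 6264 genes were, and after rescaling 2 were. In each of these 2 fits 1 was lower at an unadjusted p under 0.05. Their sum was 160.5 and 160.8 TPM in siOct4 libraries 5 and 6 and at most 77.1 TPM in the other siOct4 libraries. It was up to 97.9 TPM in siCTL libraries, and in pair 4 it went down from 97.9 to 59.8 TPM. Of 6 ES cell markers Pou5f1 itself was lower, and with the block Esrrb was too, and of 6 fibroblast markers 0 were called by limma or at an unadjusted p under 0.05.

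From TPM as deposited, the lists of the uptake pathway contained 0 genes called by limma in siOct4 cells. At an unadjusted p under 0.05, 1 of 9 genes of the LDL receptor family was lower, 1 of 10 adaptors was lower and 1 higher, 3 of 10 genes of recycling and acidification were lower, and 3 of 6 ligands were lower, where 9.90% of all genes tested were lower and 3.94% higher. The counts of the first 2 lists are near these shares. The median differences of the 4 lists were -0.29, -0.11, -0.16 and -0.43, against -0.12 over all genes tested. After rescaling, 1 gene of the LDL receptor family was called lower, and 1 adaptor was called higher and 1 lower. The recycling and ligand lists held 0 calls after rescaling, where 144 of 6250 genes were called higher and 153 lower. With the replicate block, Lrp11 was called lower in the LDL receptor family (-0.85), Myo6 among the adaptors (-1.03, from a mean of 37.0 to 17.3 TPM), Mesd, a chaperone of LDL receptor family members, and Slc9a3r1 in the recycling list (-0.51 and -0.69), and Apoe and Apom among the ligands (-0.87 and -0.78). The genes nearest to the 5 in the induction series were read from the fit without the block. Of those nearest to Amn, Gpat3 and Nostrin were called lower there, by 1.29 and 2.11 on the log2 scale, and of those nearest to Dab2, Nfxl1 was, by 0.67. The 5 genes nearest to Cubn did not pass the test in this fit, with differences between -0.71 for Lrp2 and -0.34 for Pcbd1.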

How the data were processed

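The data are polyA-selected, stranded, paired-end RNA-seq of 35 mouse libraries. Reads had been trimmed with cutadapt, aligned to mm10 with STAR and quantified with RSEM by the authors, whose notes give no versions, and the deposited values are TPM computed by the authors. The TPM of the siRNA table cover only the 6275 genes they called responsive, so its columns sum to 274527 to 355895 and not to the full total; columns with their classes and 9 of their mean columns were not used. TPM keep no depth, so no counting intervals are given, and high transcripts elsewhere in a library lower all other values.

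Values were analysed as log2(TPM + 1), keeping the 15057 and 6264 genes whose mean reached 1 TPM in any group, with limma 3.58.1 in R 4.3.3 (trended and robust variances) and Benjamini-Hochberg adjustment over all genes tested. The limits were an adjusted p of 0.05 with a log2 difference of 1 (induction) or 0.5 (siRNA). The fit was checked on simulated data. The study describes the replicates as independent, which the labels do not show, so p-values measure the spread between these libraries. Same-numbered siCTL and siOct4 libraries deviated together from their group means (correlation 0.236 to 0.707 in 6 pairs, mean 0.33, against -0.06 for other pairs), so the numbers were taken to pair them. The 5 genes and all lists were chosen with earlier results of these data known. Named are the 5 genes, up to 3 called genes per list and direction at 168 h, called genes per list after siOct4, the 5 genes of highest r, Pou5f1 and Gata6; others were named after their values were seen, and 1 result that this rule names is not reported here. Alternatives were another pseudocount (0.1), filters (none, or 5 TPM), rescaling by the median of ratios, removal of the trend with exon length, a replicate block, other fold limits, fits of 2 groups only, and each replicate left out. GENCODE M21 gave positions, and RefSeq (GRCm38.p6) promoters.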

Additional observations from a re-analysis of the deposited data

Results flagged for a closer look

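Among 26 sets of 6 siRNA libraries that were screened for a library standing apart from the other 5, 3 were past Dixon's limit, and chance gives about 1 in 20, or 1.3. The siCTL library of replicate 4 was at 10.76 for Dab2 on the log2(TPM + 1) scale, where the other siCTL libraries lay between 9.07 and 9.70. The same library was at 7.64 for Gata6, where the others lay between 6.55 and 6.82, and it also held the highest Cubn, Amn and Lrp2 of its group. The siCTL library of replicate 3 had a Cubn to Amn log2 ratio of 1.47, where the others lay between 3.45 and 3.98. Cubn was at its lowest there and Amn at its second highest. Without replicate number 3 or 4, Cubn and Amn stayed called lower in siOct4 cells.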

How the results depend on the processing

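Limits: TPM give no depth, XEN cells have 2 libraries, and the siRNA table holds selected genes only. The calls of all 5 genes at 24, 48, 72, 96 and 168 h against 0 h, and the 5 calls from 24 to 48 h, were made under every alternative, except that Lrpap1 was at 1.00 from 24 to 48 h, just inside the fold limit, without Dox 24 h replicate 3. At 16 h, 3 to 4 of 5 genes were called when 1 replicate number was left out, from 16 to 24 h 0 to 4, and from 96 to 168 h 0 to 1. Without a fold limit, 4 genes were higher from 48 to 72 h, where 2455 of all 15057 genes were, and 4 lower from 96 to 168 h, where 2441 were. Median-of-ratios rescaling and removal of the length trend each gave 2 in the latter step, and leaving out Dox 168 h replicate 3 alone gave 0. The Cubn change from 72 to 96 h, near 0, turned to 0.022 under rescaling and 0.0056 without the length trend, and ranged from -0.23 to 0.14 without a replicate number, those of Dab2 from -0.035 to 0.15 and of Lrpap1 from -0.035 to 0.14. Lrpap1 in XEN cells against 168 h turned to 0.105 under rescaling and 0.073 without the length trend. In siOct4 cells, 1 to 2 genes were called when 1 number was left out, and 0 when consecutive libraries were averaged, an alternative chosen after the data were seen, as were those that leave out single Dox libraries. Without the length trend, the log2 ratio differences became -0.95 (Cubn to Amn), -0.90 (Amn to Lrp2), -0.59 (Amn to Dab2) and 0.31 (Lrp2 to Dab2), all past 0.05. The differences of Cubn to Lrp2 and Cubn to Dab2 lost their calls in the paired sign-flip test (-1.84 and -1.60, each at its smallest p) and in averaged libraries (-1.86 and -1.62), where 3 against 3 cannot go below 0.10. Cubn to Amn ranged from -1.32 to -0.71 without a replicate. With the replicate block, 3 of 5 genes were lower in siOct4 cells, and it changed no other call of the 5 genes. In the induction series the deviations of same-numbered libraries correlated by 0.03 in the mean (-0.19 to 0.22), those of others by -0.02, so these libraries share only a number; the replicate block left 5 calls at 16 h and 3 from 16 to 24 h. The causes of these shifts were not tested.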

Other observations

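The siCTL cells and the cells of the induction series at 48 h had both spent 48 h in Dox, and their levels can be set side by side, although the tables were processed separately, siCTL cells had been nucleofected and came from 1 clone, and no test was made. Which of the study's selected clones gave the induction libraries is not given in the sources used here, so clone, nucleofection and table cannot be told apart. Cubn, Lrp2, Dab2 and Lrpap1 had means of 353, 232, 883 and 926 TPM in siCTL cells against 298, 174, 713 and 911 TPM at 48 h of induction. Amn did not follow them: its mean was 33.4 TPM in siCTL cells against 208 TPM at 48 h, 6.22 times lower, and no siCTL library, the highest at 58.4 TPM, came near the lowest induction library, at 184 TPM. On the log2(TPM + 1) scale this difference of -2.60 had rank 7 from the lowest of the 6275 genes in both tables, whose median was 0.09 and whose 5th and 95th percentiles were -0.95 and 0.88. The other 4 genes lay between 0.02 and 0.41. The Cubn to Amn ratio had a median of 12.6 in siCTL cells and was 1.20 to 1.54 in the induction libraries at 48 h.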
